A study of Homo sapiens with 100 samples.

Results

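The set described here is 43 genes of glycolysis and of the transcriptional response to low oxygen, chosen by name: every one of the 43 symbols was found once among the 78894 gene identifiers of the deposited count table. They comprise 17 glycolytic enzymes, 4 glucose and lactate transporters, 4 regulators of glycolytic flux, 3 genes of oxygen sensing, 14 other targets of hypoxia and the cytokine gene MIF. The assay was RNA sequencing from the 3′ end of transcripts, in the established human lymphoma line TMD8, a model of the activated B cell kind of diffuse large cell lymphoma. The mutant clones carried A428D, a substitution in the kinase BTK made in its endogenous locus (6 single-cell clones), and the others were wild-type single-cell clones of the line (5 clones). No group was placed in low oxygen according to the labels. The series asks how this BTK change alters the response to drugs that degrade BTK.

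Each of the 11 clones received 8 conditions for 24 h: zelebrudomide plus venetoclax, bexobrutideg plus venetoclax, pomalidomide plus venetoclax, venetoclax, zelebrudomide, bexobrutideg, pomalidomide, and the solvent DMSO, which gave 88 libraries in 16 groups. Both zelebrudomide and bexobrutideg degrade BTK, and zelebrudomide in addition recruits the lymphoid factors IKZF1 and IKZF3 to the ligase subunit cereblon. Pomalidomide recruits these factors and not BTK, and venetoclax blocks the survival protein BCL2. A second set of 12 libraries came from untreated cultures, 1 from each A428D and wild-type clone and 1 from the parental line, which entered no comparison. Drug doses are not stated. Titles of the samples set A428D beside SF3B1, whereas the culture and design texts place it in BTK, and 3′ counts cannot read the base change. Because clones are the replicates, p-values of fits without a block measure the spread between clones of 1 line. Those with the clone as a block measure the spread left once differences between clones are taken out. In the 24 h set the fit without a block treats the 88 libraries as independent, though each of the 11 clones gave 8.

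Library depth was 1476519 to 9388855 counts in the 24 h set and 10400854 to 12501775 counts in the untreated set, and mitochondrial transcripts took 6.24 to 11.1% of counts. Of 8 B cell markers, 7 had a median of at least 1 CPM (read counts scaled to the same TMM-adjusted library size), with CR2 at a median of 0.302 CPM. The summed level of the B cell markers was 2810 to 6370 CPM, against 0 to 6.51 CPM for T cell, 0.131 to 2.46 CPM for myeloid, 0 to 1.24 CPM for erythroid, 1.21 to 9.51 CPM for epithelial and 3.82 to 37.1 CPM for fibroblast or endothelial markers. One library stood apart. The wild-type clone 3 library with bexobrutideg plus venetoclax was the shallowest, at 1476519 counts, and its median absolute difference from the rest of its group was 0.972 on the log2 scale over 5310 genes, against 0.0564 to 0.294 for the other 98 libraries of replicated groups. In it ENO1 stood at 222 CPM, against 603 to 705 CPM in the other 4 clones of its group, PKM at 55.3 CPM, against 220 to 259 CPM, and HK2 at 55.7 CPM, against 18.7 to 21.1 CPM. It shares the fit of the 24 h set. Members' results of the fit without a block on bexobrutideg plus venetoclax in wild-type clones are therefore given with and without it. Other results are given without it where a call changed. Fits with the clone as a block were not run without this library alone, so blocked results include it.

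Glycolysis breaks glucose down to pyruvate, and lactate dehydrogenase then turns pyruvate into lactate, which monocarboxylate transporters export. When oxygen falls, the prolyl hydroxylases encoded by EGLN genes no longer mark the HIF alpha proteins for destruction, and HIF raises transcription of glycolytic enzymes, glucose transporters, PDK1 (which keeps pyruvate out of the mitochondrion), BNIP3 (which drives removal of mitochondria) and VEGFA (the angiogenic growth factor). HIF1A itself is controlled mainly at the level of the protein, so that its transcript is a poor readout of the pathway. In lymphoma cells MYC and signalling of the B cell receptor also feed into glycolytic gene expression.

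HIF binds the short core ACGTG or GCGTG. Promoter windows of 300 bases, from 250 before to 50 after each annotated start, were taken from RefSeq on GRCh38.p14 and held 37 of the 43 genes, with 68 windows in all. HILPDA, SLC16A1, VEGFA, BNIP3L, SLC2A3 and NDRG1 had no window. Counting both strands, ACGTG was found in 42.6% of the 68 windows, against 21.4% of all 35116 windows, and GCGTG in 44.1%, against 36.5%. The E-box CACGTG, which holds ACGTG on both strands, was in 16.2%, against 7.26%. Among the 24 genes with a single window, 58.3% held ACGTG, against 21.3% of 22114 genes. These are letter matches, not measured binding. The upstream 250 bases of 4 windows with several cores are shown because all 4 genes were higher under DMSO than in untreated cultures, and that of PGAM1, an enzyme that moved the other way in the comparison of DMSO with untreated cultures, because it held neither core. Capitals mark every match to ACGTG or GCGTG on either strand (CACGT and CACGC are the cores read on the other strand).
ALDOC, chr17:28576896-28577145, minus strand: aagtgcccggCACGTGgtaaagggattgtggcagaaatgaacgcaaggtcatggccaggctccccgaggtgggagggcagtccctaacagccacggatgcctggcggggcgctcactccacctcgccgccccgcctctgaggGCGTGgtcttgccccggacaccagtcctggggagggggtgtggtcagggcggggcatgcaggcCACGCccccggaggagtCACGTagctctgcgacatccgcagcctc
ANKRD37, chr4:185396591-185396840, plus strand: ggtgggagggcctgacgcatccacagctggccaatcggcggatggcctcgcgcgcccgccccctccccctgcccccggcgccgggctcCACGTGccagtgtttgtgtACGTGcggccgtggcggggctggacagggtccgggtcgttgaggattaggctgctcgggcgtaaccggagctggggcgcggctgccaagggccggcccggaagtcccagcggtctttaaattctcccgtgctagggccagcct
BHLHE40, chr3:4979187-4979436, plus strand: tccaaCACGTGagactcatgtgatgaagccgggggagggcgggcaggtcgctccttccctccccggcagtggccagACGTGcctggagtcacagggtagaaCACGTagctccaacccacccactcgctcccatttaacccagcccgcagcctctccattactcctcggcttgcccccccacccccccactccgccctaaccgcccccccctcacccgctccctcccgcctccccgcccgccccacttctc
BNIP3, chr10:131981924-131982173, minus strand: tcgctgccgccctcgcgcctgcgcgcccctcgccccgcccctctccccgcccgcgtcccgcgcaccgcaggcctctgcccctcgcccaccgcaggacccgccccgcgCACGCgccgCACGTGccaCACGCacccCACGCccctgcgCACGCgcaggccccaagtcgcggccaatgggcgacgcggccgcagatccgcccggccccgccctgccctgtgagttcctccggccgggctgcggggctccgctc
PGAM1, chr10:97427568-97427817, plus strand: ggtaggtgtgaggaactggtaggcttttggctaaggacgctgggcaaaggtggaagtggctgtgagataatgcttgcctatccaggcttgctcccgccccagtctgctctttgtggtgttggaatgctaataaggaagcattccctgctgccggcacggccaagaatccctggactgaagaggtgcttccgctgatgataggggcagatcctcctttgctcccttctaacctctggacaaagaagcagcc
The ALDOC window held 3 ACGTG and 2 GCGTG matches, with its CACGTG near the far end, and the ANKRD37 window 3 ACGTG matches. The BHLHE40 window held 4 ACGTG matches and the BNIP3 window 2 ACGTG and 4 GCGTG matches. The printed windows were picked by direction of change, and other genes went the other way. An LDHA window held 5 ACGTG matches and 1 GCGTG match, and LDHA was lower under DMSO. The windows of EGLN3 and P4HA2, both higher under DMSO, held neither core. Whether cores go with the direction of change was not tested.

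Most of these genes differed between the DMSO cultures of the 24 h set and the untreated cultures. Under DMSO 34 of the 43 genes were higher and 4 lower in A428D clones, and 29 were higher and 9 lower in wild-type clones (edgeR's quasi-likelihood test with Benjamini-Hochberg adjustment, adjusted p under 0.05). Most genes of the transcriptome differed too: 71.0% of all genes tested were called in A428D clones (33.9% higher and 37.0% lower) and 72.0% in wild-type clones (35.7% higher and 36.4% lower). The 43 genes had a median log2 fold change of 0.95 in A428D clones and 0.59 in wild-type clones, against -0.03 and 0.00 over all genes tested. The untreated libraries form a separate set, so exposure, set and depth cannot be told apart here. In bulk samples a lower level can also mean fewer cells of a kind as well as less transcript per cell, and these cannot be told apart either. The mitochondrial share was 6.51 to 9.07% in DMSO and 8.94 to 11.1% in untreated libraries, and its part in the result was not tested.

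The glycolytic enzymes split. Of 17, 10 rose and 3 fell in A428D clones, and 6 rose and 7 fell in wild-type clones. TPI1 was called higher in A428D clones (0.29, adjusted p = 0.000509) and lower in wild-type clones. The wild-type call of TPI1 ended without A428D clone 4 or wild-type clone 1, 3 or 5 (adjusted p = 0.055 to 0.171). ALDOC (ENSG00000109107, GRCh38 chr17:28573115-28577264, minus strand) encodes aldolase C, the brain-enriched form of the enzyme that cleaves fructose bisphosphate. In A428D clones it stood at 69.2, 94.3 and 131 CPM under DMSO (lowest, median and highest of 6 clones), against 1.11, 1.5 and 3.01 CPM in untreated cultures. In wild-type clones 1 to 5 it had 76.3, 94.8, 85.9, 108 and 93.4 CPM under DMSO, against 1.24, 1.13, 1.07, 0.786 and 1.24 CPM untreated. The groups lay far apart, and the log2 fold change was 5.90 ± 0.19 (SE) in A428D (adjusted p = 6.94e-18) and 6.43 ± 0.22 in wild-type clones (adjusted p = 3.13e-17), the largest among the 43 genes in both genotypes. PFKL, the liver form of phosphofructokinase, rose by 1.33 in A428D and 0.78 in wild-type clones, and PGK1, PKM and ALDOA by 0.29 to 0.63.

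LDHA (ENSG00000134333, chr11:18394388-18408425, plus strand), the lactate dehydrogenase subunit that favours making lactate and a textbook HIF target, went the other way. It had 222, 284 and 321 CPM in A428D clones under DMSO (lowest, median and highest), against 464, 530 and 560 CPM untreated, and 185, 234, 218, 234 and 217 CPM in wild-type clones under DMSO, against 564, 578, 625, 617 and 586 CPM untreated. Every DMSO library lay below every untreated one. LDHA fell by 0.89 ± 0.08 on the log2 scale in A428D clones (adjusted p = 1.74e-10) and by 1.40 ± 0.09 in wild-type clones (adjusted p = 1.42e-13). PFKM (ENSG00000152556, chr12:48105139-48146404, plus strand), the muscle form of phosphofructokinase, fell by 0.67 and 0.92, and PGAM1, a phosphoglycerate mutase, by 0.52 and 0.88. HK2 (ENSG00000159399, chr2:74833981-74893359, plus strand), the inducible hexokinase, fell in wild-type clones, to 22.3, 27.8, 27.6, 27.8 and 25.5 CPM, against 41.4, 42.9, 44.2, 43.4 and 43.6 CPM untreated (-0.67 ± 0.12, adjusted p = 2.69e-05). In A428D clones HK2 spread over 24.2 to 46.7 CPM under DMSO, against 35.9 to 42.2 CPM untreated, and was not called (-0.08 ± 0.11, adjusted p = 0.548). GAPDH and ENO1, which catalyse later steps, fell by 0.33 and 0.28 in wild-type clones and were not called in A428D clones; the difference between genotypes was not tested in this comparison. The table lists 6 pseudogenes of LDHA, 14 of PGAM1, 65 of GAPDH, 45 of BNIP3, 6 of AK4, 5 of PKM, 5 of TPI1 and 4 of ENO1, and their share in the counts of these genes was not tested.

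Of the 4 transporters 3 rose and 1 fell in both genotypes. SLC16A3 (ENSG00000141526, chr17:82228397-82261129, plus strand), the lactate exporter MCT4, had 7.77, 9.47 and 23.1 CPM in A428D clones under DMSO, against 0.776, 1.03 and 1.47 CPM untreated (3.47 ± 0.29, adjusted p = 4.41e-10). Its wild-type values were 9.58, 11.5, 8.67, 18.1 and 7.31 CPM under DMSO, against 0.825, 0.829, 0.843, 1.07 and 0.773 CPM untreated (3.70 ± 0.33, adjusted p = 8.08e-10). SLC2A3, the high-affinity glucose transporter GLUT3, rose by 3.84 in A428D and 3.12 in wild-type clones. SLC2A1, the basal glucose transporter GLUT1, rose less, by 0.77 ± 0.12 in A428D (adjusted p = 1.76e-06) and 0.57 ± 0.12 in wild-type clones (adjusted p = 0.000235). SLC16A1, the transporter MCT1 and a known MYC target, was the one that fell, by 0.84 and 1.12.

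All 4 regulators of flux, all 3 genes of oxygen sensing and nearly all other hypoxia targets (14 of 14 in A428D, 13 of 14 in wild-type clones) rose. These counts include PFKFB4, EGLN3, NDRG1 and ADM, which passed the filter on low counts only through the DMSO libraries, where they are high. PFKFB4 and PFKFB3 make fructose 2,6-bisphosphate, the activator of phosphofructokinase: PFKFB4 rose by 4.73 in A428D and 4.65 in wild-type clones, and PFKFB3 by 2.18 and 1.69. PDK1 had 13.3, 14.3 and 25.2 CPM in A428D clones under DMSO, against 4.6, 5.3 and 7.76 CPM untreated (1.58 ± 0.17, adjusted p = 1.02e-08), and rose by 1.25 ± 0.18 in wild-type clones (adjusted p = 1.58e-06). The HIF1A transcript moved little, by 0.33 ± 0.09 in A428D (adjusted p = 0.00206) and 0.38 ± 0.10 in wild-type clones (adjusted p = 0.00139). The hydroxylase gene EGLN3, itself a HIF target, rose by 2.64 and 3.99. It had libraries below the filter level of 1.43 CPM in both untreated groups and in A428D clones under DMSO.

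Among the other targets, NDRG1, a stress-responsive gene used as a hypoxia marker, had 3.88, 5.72 and 18.3 CPM in A428D clones under DMSO, against 0.0815, 0.425 and 0.776 CPM untreated (4.19 ± 0.47, adjusted p = 7.06e-08). In wild-type clones it had 7.64, 9.1, 5.62, 15.2 and 6.27 CPM under DMSO, against 0.412, 0.452, 0.613, 0.429 and 0.155 CPM untreated (4.43 ± 0.50, adjusted p = 7.52e-08). P4HA2, a collagen prolyl hydroxylase subunit, rose by 3.06 in A428D and 4.06 in wild-type clones, and ANKRD37, an ankyrin repeat protein, by 3.19 and 2.73. BHLHE40, a repressor induced by HIF, rose by 2.90 and 2.78, and the mitophagy receptors BNIP3 and BNIP3L by 2.22 to 2.64. VEGFA had 26.9, 31.5 and 53.6 CPM in A428D clones under DMSO, against 6.42, 8.1 and 17.3 CPM untreated (2.01 ± 0.21, adjusted p = 3.81e-08), and rose by 1.80 ± 0.23 in wild-type clones (adjusted p = 4.42e-07). ADM, the peptide adrenomedullin, had 2 to 38 counts in A428D clones under DMSO, against 0 to 3 untreated, and 5 to 12 in wild-type clones under DMSO, against 0 to 2 untreated, too few for a fold, though it is counted among the risen genes. MIF was 527 ± 31.3 CPM under DMSO and 540 ± 27.7 CPM untreated in A428D clones (SD, n = 6; 0.03, not called), and fell by 0.15 in wild-type clones (adjusted p = 0.0321), a call that ended without clone 1, 3 or 5 (adjusted p = 0.163, 0.0915 and 0.0845).

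ADM, EGLN3, NDRG1 and PFKFB4 did not pass the filter on low counts among untreated libraries alone and passed only through the DMSO libraries. Over the other 39 genes 30 rose and 4 fell in A428D and 25 rose and 9 fell in wild-type clones, with medians of 0.72 and 0.57. Further gene lists were counted beside the 43 genes. Of 21 further hypoxia targets tested, 14 rose and 3 fell in A428D and 15 rose and 3 fell in wild-type clones, among them CA9, carbonic anhydrase IX (3.87 and 4.76), DDIT4, an inhibitor of mTOR (3.69 and 3.50), and RAB20 (3.57 and 2.99). Of 31 further genes of carbohydrate metabolism 6 rose and 21 fell in A428D, and 4 rose and 21 fell in wild-type clones. Of 13 genes of the HIF machinery 6 rose and 6 fell in A428D and 6 rose and 5 fell in wild-type clones. CUL2 and RBX1, subunits of the ligase that removes HIF alpha, fell by 0.85 to 1.03, and OS9 rose by 0.67 in A428D and 0.98 in wild-type clones. MYC fell by 1.02 in A428D and 1.21 in wild-type clones.

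**Figure D1:**
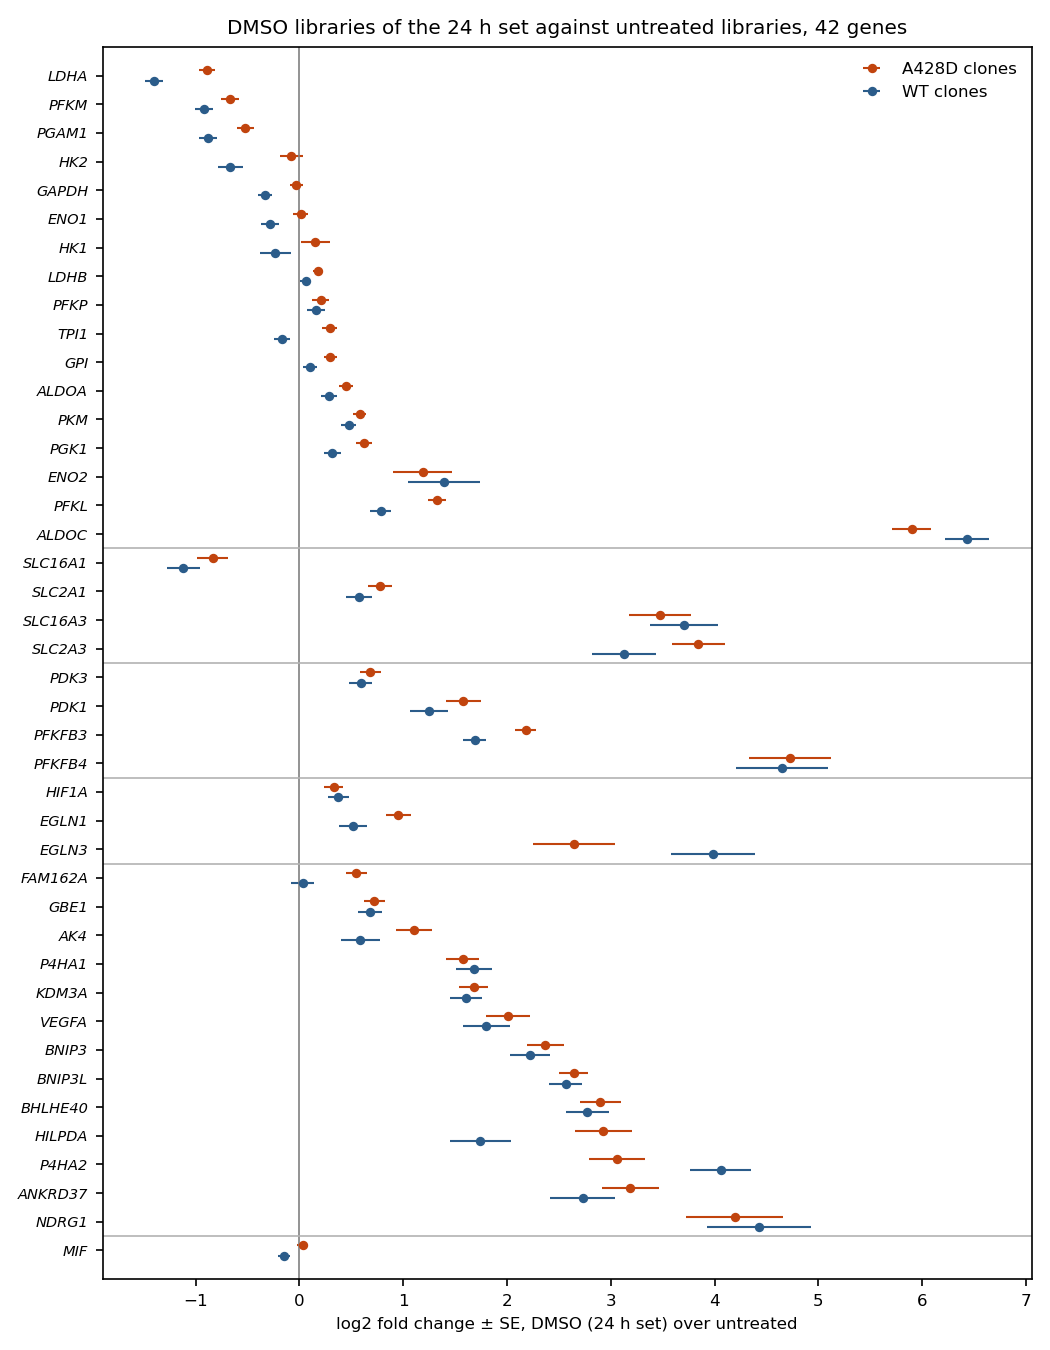
Log2 fold change of 42 genes, DMSO libraries of the 24 h set over untreated libraries, in A428D (orange) and wild-type (blue) clones; points are estimates and lines are SE, and grey lines separate enzymes, transporters, regulators of flux, oxygen sensing, other hypoxia targets and MIF. ALDOC lies at 5.90 in A428D and 6.43 in wild-type clones, and LDHA, SLC16A1, PFKM and PGAM1 lie below 0 in both; ADM is left out for its low counts.

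Under DMSO, few of these genes were called between A428D and wild-type clones, a share near that of all genes. By the same test 18 of the 43 genes had an unadjusted p under 0.05, as had 3290 of 13397 genes tested. The median log2 fold change was 0.195 in the 43 genes, against 0.004 over all genes tested. In A428D clones 3 of 43 were higher and 0 lower, where 7.13% of all genes tested were called (3.3% higher and 3.83% lower). SLC2A3 had 9.26, 13.2 and 17.7 CPM in A428D clones (lowest, median, highest), against 5.7, 7.08, 2.93, 8.95 and 5.37 CPM in wild-type clones, with no overlap (1.10 ± 0.24, adjusted p = 0.0162). PFKFB3 (ENSG00000170525, chr10:6144934-6254644, plus strand) had 43.5, 48.8 and 60 CPM in A428D clones, against 25.6, 29.4, 30.9, 39.6 and 26.9 CPM in wild-type clones, again with no overlap (0.71 ± 0.11, adjusted p = 0.00248). PFKL was higher by 0.42 ± 0.11 (adjusted p = 0.0343), with 34.6 to 56.5 CPM in A428D and 30.1 to 36.7 CPM in wild-type clones, and this call ended without any of 7 of the 11 clones (A428D clones 4 and 6 and each wild-type clone, adjusted p = 0.0514 to 0.0761). With the clone number as a block, SLC2A3 had adjusted p = 0.138, PFKFB3 0.0251 and PFKL 0.0952 (1.72% of all genes called), but A428D clone 1 and wild-type clone 1 share only a number. LDHA (0.34, adjusted p = 0.0604), HK2 (0.45, adjusted p = 0.102), PDK1 (0.29, adjusted p = 0.352), SLC2A1 (0.12), HIF1A (0.07) and VEGFA (0.01) were not called. Without A428D clone 1 the count was 10 higher and 1 lower, and without A428D clone 2 it was 7 higher and 0 lower. The calls over all genes moved as well, between 437 and 2097 with 1 clone left out, against 955 with all clones.

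In untreated cultures the 2 genotypes differed in other members. Of 39 genes tested 0 were higher and 3 lower in A428D clones, where 5.9% of all genes were called (3.5% higher, 2.4% lower). Blocking by clone number left PFKM alone of the 39 called (2.9% of all genes). PFKM had 33.6, 35.7 and 45.6 CPM in A428D clones, against 46.5, 49.5, 47.8, 49.6 and 44.4 CPM in wild-type clones (-0.34 ± 0.07, adjusted p = 0.00861, and 0.0181 with the number as a block), and 1 A428D clone overlapped the wild-type range. TPI1 (-0.17, adjusted p = 0.0478) and GPI (-0.14, adjusted p = 0.0474), isomerases of the upper pathway, lost their calls without any of 8 clones each and with the number as a block (adjusted p = 0.193 for TPI1 and 0.168 for GPI). LDHA had 464 to 560 CPM in A428D clones, against 564 to 625 CPM in wild-type clones, which did not overlap, at adjusted p = 0.0534. Without A428D clone 1 the count was 1 higher and 7 lower, without wild-type clone 1 it was 2 higher and 3 lower, and without A428D clone 3, 5 or 6 or wild-type clone 3, 4 or 5 it was 0 higher and 1 lower.

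With venetoclax most hypoxia targets were lower in both genotypes. Against DMSO, 1 of 43 genes rose and 23 fell in A428D clones, where 16.8% of all genes were called (8.05% higher and 8.79% lower), and 2 rose and 18 fell in wild-type clones, where 32.8% were called (15.4% higher and 17.4% lower). The median log2 fold change of the 43 genes was -0.61 in A428D and -0.54 in wild-type clones, against -0.04 and -0.06 over all genes tested. The clone pairs these libraries, and with the clone as a block 4 rose and 27 fell in wild-type clones (45.0% of all genes called). Without the library apart the counts were 1 and 27 in A428D clones, with GAPDH (-0.26), GPI (-0.27), PKM (-0.26) and TPI1 (-0.32) added, and 2 and 20 in wild-type clones, with ALDOA (-0.35) and GPI (-0.27) added. All comparisons of a genotype with DMSO share its DMSO libraries, so a high DMSO level enters each of them, and the DMSO libraries are also those set against the untreated cultures above.

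By role, 11 of 14 other hypoxia targets fell in A428D and 10 of 14 in wild-type clones, and so did 4 of 4 and 3 of 4 regulators of flux. Of 17 enzymes 4 fell and 1 rose in A428D clones, and 2 fell and 1 rose in wild-type clones. NDRG1 had 1.01, 1.43 and 1.91 CPM in A428D clones with venetoclax, against 3.88, 5.72 and 18.3 CPM under DMSO (-2.44 ± 0.39, adjusted p = 8.53e-06). In wild-type clones NDRG1 had 1.47, 1.11, 1.16, 1.84 and 1.06 CPM with venetoclax, against 7.64, 9.1, 5.62, 15.2 and 6.27 CPM under DMSO (-2.71 ± 0.42, adjusted p = 5.74e-07). Neither genotype showed overlap, and NDRG1 had the largest fall of the 43 genes in each.

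ALDOC had 25.3, 42.8 and 57.2 CPM in A428D clones with venetoclax, against 69.2, 94.3 and 131 CPM under DMSO (-1.27 ± 0.18, adjusted p = 1.53e-06). In wild-type clones ALDOC had 32.6, 35.2, 37.2, 30.6 and 28.3 CPM with venetoclax, against 76.3, 94.8, 85.9, 108 and 93.4 CPM under DMSO (-1.48 ± 0.20, adjusted p = 4.06e-08). Every treated clone of either genotype lay below every DMSO clone of its genotype. The lowest treated clone had 25.3 CPM, where the highest untreated clone had 3.01 CPM. SLC16A3 had 0.566, 3.99 and 7.09 CPM in A428D clones with venetoclax (-1.65 ± 0.36, adjusted p = 0.000625) and 1.32, 2.36, 1.94, 2.49 and 2.64 CPM in wild-type clones (-2.35 ± 0.42, adjusted p = 8.73e-06). SLC2A3 had 2.68, 5.75 and 5.86 CPM in A428D clones with venetoclax (-1.44 ± 0.25, adjusted p = 3.36e-05) and 2.2, 1.66, 1.55, 1.57 and 0.792 CPM in wild-type clones (-1.95 ± 0.34, adjusted p = 7.4e-06). SLC2A1 was not called in A428D (-0.26, adjusted p = 0.228) or wild-type clones (-0.33, adjusted p = 0.101), and was with the clone as a block (adjusted p = 0.0312 and 0.00338).

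PFKFB4 fell by 1.79 in A428D and 2.52 in wild-type clones, and PFKFB3 by 0.80 and 1.28. PDK1 had 4.11, 9.54 and 14.6 CPM in A428D clones with venetoclax, against 13.3, 14.3 and 25.2 CPM under DMSO (-0.81 ± 0.26, adjusted p = 0.0249). That call ended without A428D clone 1, 2, 3 or 4 (adjusted p = 0.0721, 0.0604, 0.149 and 0.0801). In wild-type clones PDK1 had 3.82, 5.41, 6.72, 6.03 and 7.13 CPM with venetoclax, against 12.4, 12.6, 15, 17.7 and 8.95 CPM under DMSO (-1.19 ± 0.31, adjusted p = 0.00155). Among other targets P4HA2 fell by 1.29 in A428D and 1.50 in wild-type clones, BNIP3L by 1.10 and 1.41, and KDM3A, a histone demethylase induced by HIF, by 1.08 and 1.34. EGLN3 fell by 1.32 in A428D clones, a call that ended without clone 1, 3, 4 or 5 (adjusted p = 0.125, 0.0952, 0.106 and 0.0552), and stood at -0.91 in wild-type clones (adjusted p = 0.0602). VEGFA had 17.1, 20.1 and 22.5 CPM in A428D clones with venetoclax, against 26.9, 31.5 and 53.6 CPM under DMSO (-0.92 ± 0.14, adjusted p = 5.29e-06), and 20, 23.9, 17.8, 19.7 and 18.6 CPM in wild-type clones, against 34.7, 42.5, 32.1, 43.3 and 31 CPM (-0.87 ± 0.15, adjusted p = 7.56e-06).

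The HIF1A transcript was not called with venetoclax: it stood at 57.8, 64.5 and 101 CPM in A428D clones with venetoclax, against 51.8, 62.5 and 83.1 CPM under DMSO (0.12, adjusted p = 0.606), and changed by -0.02 in wild-type clones (adjusted p = 0.933). HK2 (-0.13 in A428D and 0.20 in wild-type clones) and LDHA (-0.07 and 0.21) were not called either, though LDHA in wild-type clones was with the clone as a block (adjusted p = 0.0151). PFKM was the one enzyme that rose in both genotypes. It had 24.4, 26.7 and 37.3 CPM in A428D clones with venetoclax, against 17.7, 22.4 and 27.1 CPM under DMSO (0.32 ± 0.10, adjusted p = 0.0195, and 0.0561 without A428D clone 4). In wild-type clones PFKM had 33.9, 35.8, 43.2, 33.6 and 37 CPM with venetoclax, against 23.1, 22.2, 24.8, 27.1 and 24.5 CPM under DMSO, with no overlap (0.60 ± 0.11, adjusted p = 9.86e-06). SLC16A1 rose in wild-type clones, to 38.5, 47, 55.3, 51.5 and 50.7 CPM, against 27.7, 35.8, 33.8, 36.9 and 33.1 CPM under DMSO (0.54 ± 0.18, adjusted p = 0.015, and 0.0577 without wild-type clone 3). MIF was not called.

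Of 22 further hypoxia targets tested, 0 rose and 12 fell in A428D, and 0 rose and 13 fell in wild-type clones, including CA9 (-2.39 and -3.23) and RAB20 (-1.34 and -1.20). Of 31 further genes of carbohydrate metabolism 3 rose and 2 fell in A428D, and 5 rose and 1 fell in wild-type clones. Of 13 genes of the HIF machinery 4 rose and 1 fell in A428D, and 3 rose and 4 fell in wild-type clones. MYC rose by 0.57 in A428D (adjusted p = 0.0185) and 0.70 in wild-type clones (adjusted p = 0.00347). In the test of whether the response to venetoclax differed between genotypes 0 of 43 were called, where 0.0% of all genes were (709 of 14962 genes, and 1 member, had an unadjusted p under 0.05). With the block 0 of 43 were called too.

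**Figure D2:**
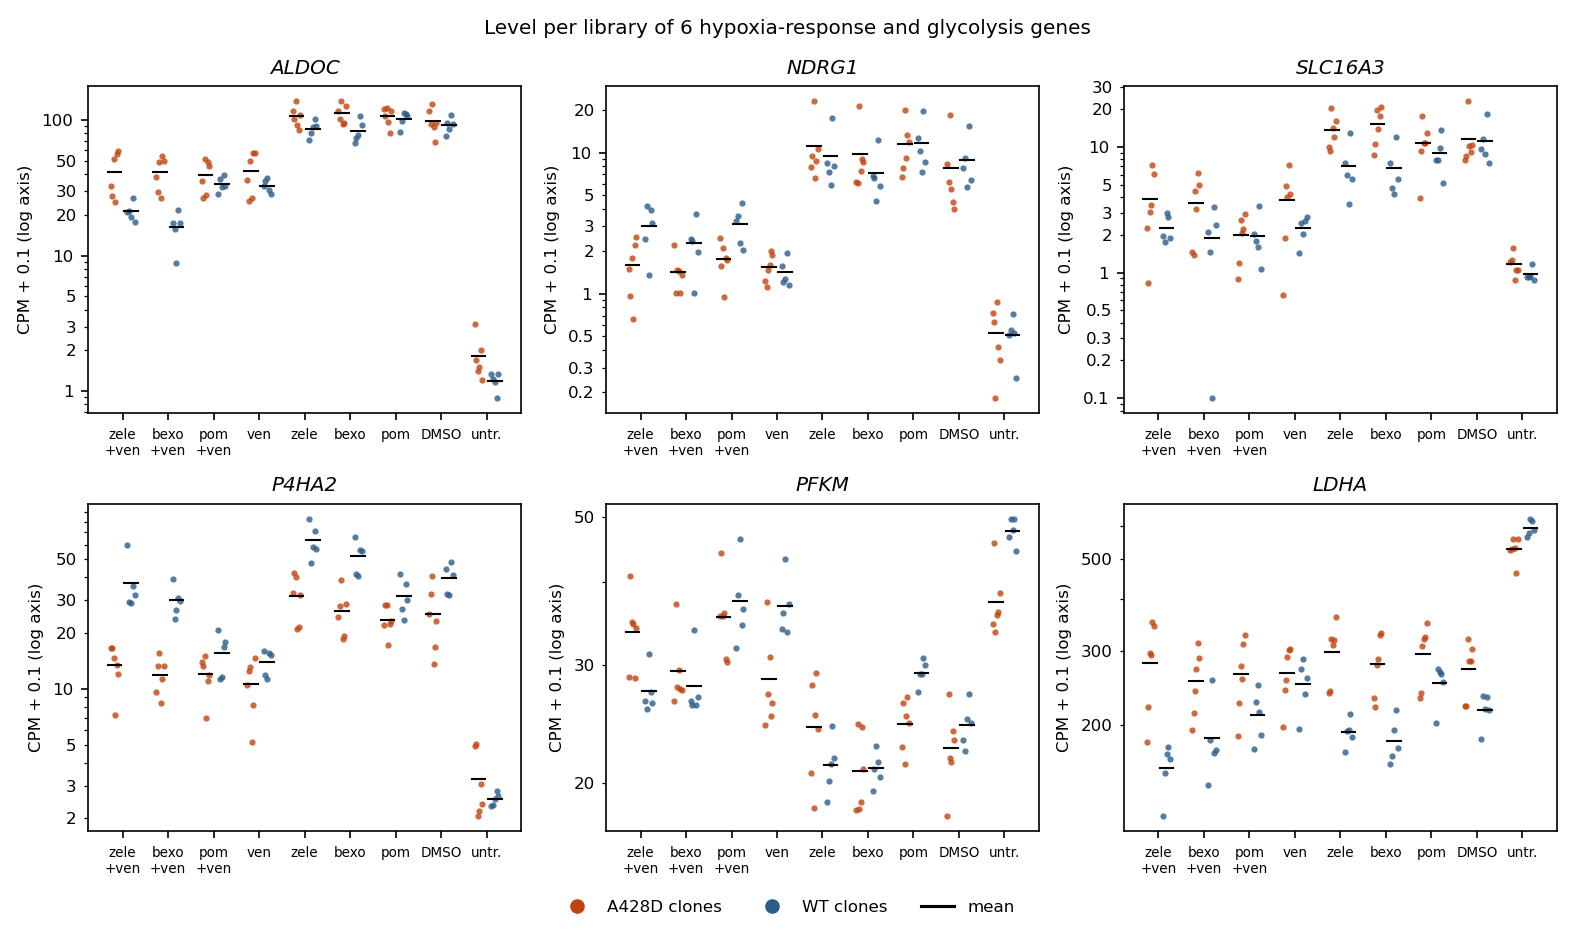
Level of 6 genes in each library (CPM plus 0.1, log axis) by condition, drug combinations at the left and untreated (untr.) at the right, with A428D clones in orange left of wild-type clones in blue and a bar at each mean. ALDOC, NDRG1 and SLC16A3 have their highest means in the 24 h set without venetoclax, lower means with it and their lowest untreated, whereas LDHA is highest untreated and lowest in wild-type clones with zelebrudomide plus venetoclax.

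In each of the 3 combinations with venetoclax most called members were lower than under DMSO. With zelebrudomide plus venetoclax 1 of 43 genes rose and 24 fell in A428D clones (26.2% of all genes called, 12.2% higher and 14.0% lower), and 0 rose and 26 fell in wild-type clones (23.4%, 11.9% higher and 11.5% lower). With bexobrutideg plus venetoclax 1 rose and 24 fell in A428D clones (15.7%, 7.02% higher and 8.66% lower), and 0 rose and 26 fell in wild-type clones (21.3%, 10.8% higher and 10.5% lower), or 0 and 23 without the library apart. With pomalidomide plus venetoclax 1 rose and 24 fell in A428D clones (30.4%, 14.5% higher and 15.9% lower), and 2 rose and 23 fell in wild-type clones (36.8%, 17.7% higher and 19.0% lower). In A428D clones the one riser was PFKM each time, by 0.55 with zelebrudomide, 0.38 with bexobrutideg and 0.63 with pomalidomide in the combination. In wild-type clones PFKM (0.64) and SLC16A1 (0.74) rose with the pomalidomide combination. PFKM stood at 0.23 and 0.24 (0.15 without the library apart) with the zelebrudomide and bexobrutideg combinations (adjusted p = 0.146 and 0.127), which were called with the clone as a block (adjusted p = 0.0309 and 0.026).

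SLC16A3 fell by 1.66, 1.74 and 2.60 in A428D clones with the zelebrudomide, bexobrutideg and pomalidomide combinations, and by 2.30, 2.41 (2.27 without the library apart) and 2.53 in wild-type clones. In the library apart SLC16A3 had 0 counts. NDRG1 fell by 2.40, 2.56 and 2.23 in A428D clones and by 1.51, 1.85 (1.77 without the library apart) and 1.53 in wild-type clones. PDK1 fell by 1.15, 0.92 and 1.26 in A428D clones, where the bexobrutideg combination lost its call without clone 3 (adjusted p = 0.123), and by 1.89, 1.79 (1.90 without the library apart) and 1.67 in wild-type clones. AK4, a mitochondrial adenylate kinase, fell by 1.12, 1.14 and 1.47 in A428D and by 1.72, 1.56 (1.74 without the library apart) and 1.48 in wild-type clones. VEGFA fell by 0.64, 0.90 and 0.55 in A428D and by 0.81, 0.95 (1.16 without the library apart) and 0.58 in wild-type clones. HIF1A was called in none of the 6 (-0.17 to 0.33), though it was in A428D clones with the pomalidomide combination with the clone as a block (adjusted p = 0.00127) and without the library apart (0.35, adjusted p = 0.013).

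Leaving out the library apart added falls in enzymes elsewhere too. With zelebrudomide plus venetoclax 27 then fell in A428D clones (GPI, PKM and TPI1 added) and 28 in wild-type clones (HK2 at -0.58 and TPI1 added). With bexobrutideg plus venetoclax 28 fell in A428D clones (ENO1, GAPDH, PKM and TPI1 added). With pomalidomide plus venetoclax 27 fell in A428D clones (ALDOA, ENO1 and PKM added) and 25 in wild-type clones (ALDOA and GPI added).

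By role, the counts of fallen enzymes were less even in the fit with all libraries. In A428D clones 4 of 17 enzymes fell with the zelebrudomide, 5 with the bexobrutideg and 3 with the pomalidomide combination. In wild-type clones 9, 11 (8 without the library apart) and 3 fell. Leaving out that library added ENO1, GAPDH, PKM and TPI1 to the 5 in A428D clones with the bexobrutideg combination. It added GPI, PKM and TPI1 there with the zelebrudomide and ALDOA, ENO1 and PKM with the pomalidomide combination. In wild-type clones it added HK2 and TPI1 with zelebrudomide and ALDOA and GPI with pomalidomide. How the enzyme counts of the genotypes compare therefore depends on this library. ALDOC had 24.8, 41.8 and 58.6 CPM in A428D clones with zelebrudomide plus venetoclax (-1.28 ± 0.18, adjusted p = 1.66e-07), and 21, 21.3, 19.3, 26.5 and 17.7 CPM in wild-type clones (-2.04 ± 0.22, adjusted p = 1.55e-11). LDHA had 182, 296 and 352 CPM in A428D clones with that combination (0.02, adjusted p = 0.945), and 120, 154, 170, 176 and 166 CPM in wild-type clones, all below every wild-type DMSO library (-0.41 ± 0.15, adjusted p = 0.0415). The LDHA call ended without A428D clone 3 or 4 or wild-type clone 1, 2, 4 or 5 (adjusted p = 0.0532 to 0.183) and had adjusted p = 4.26e-06 with the clone as a block.

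**Figure D3:**
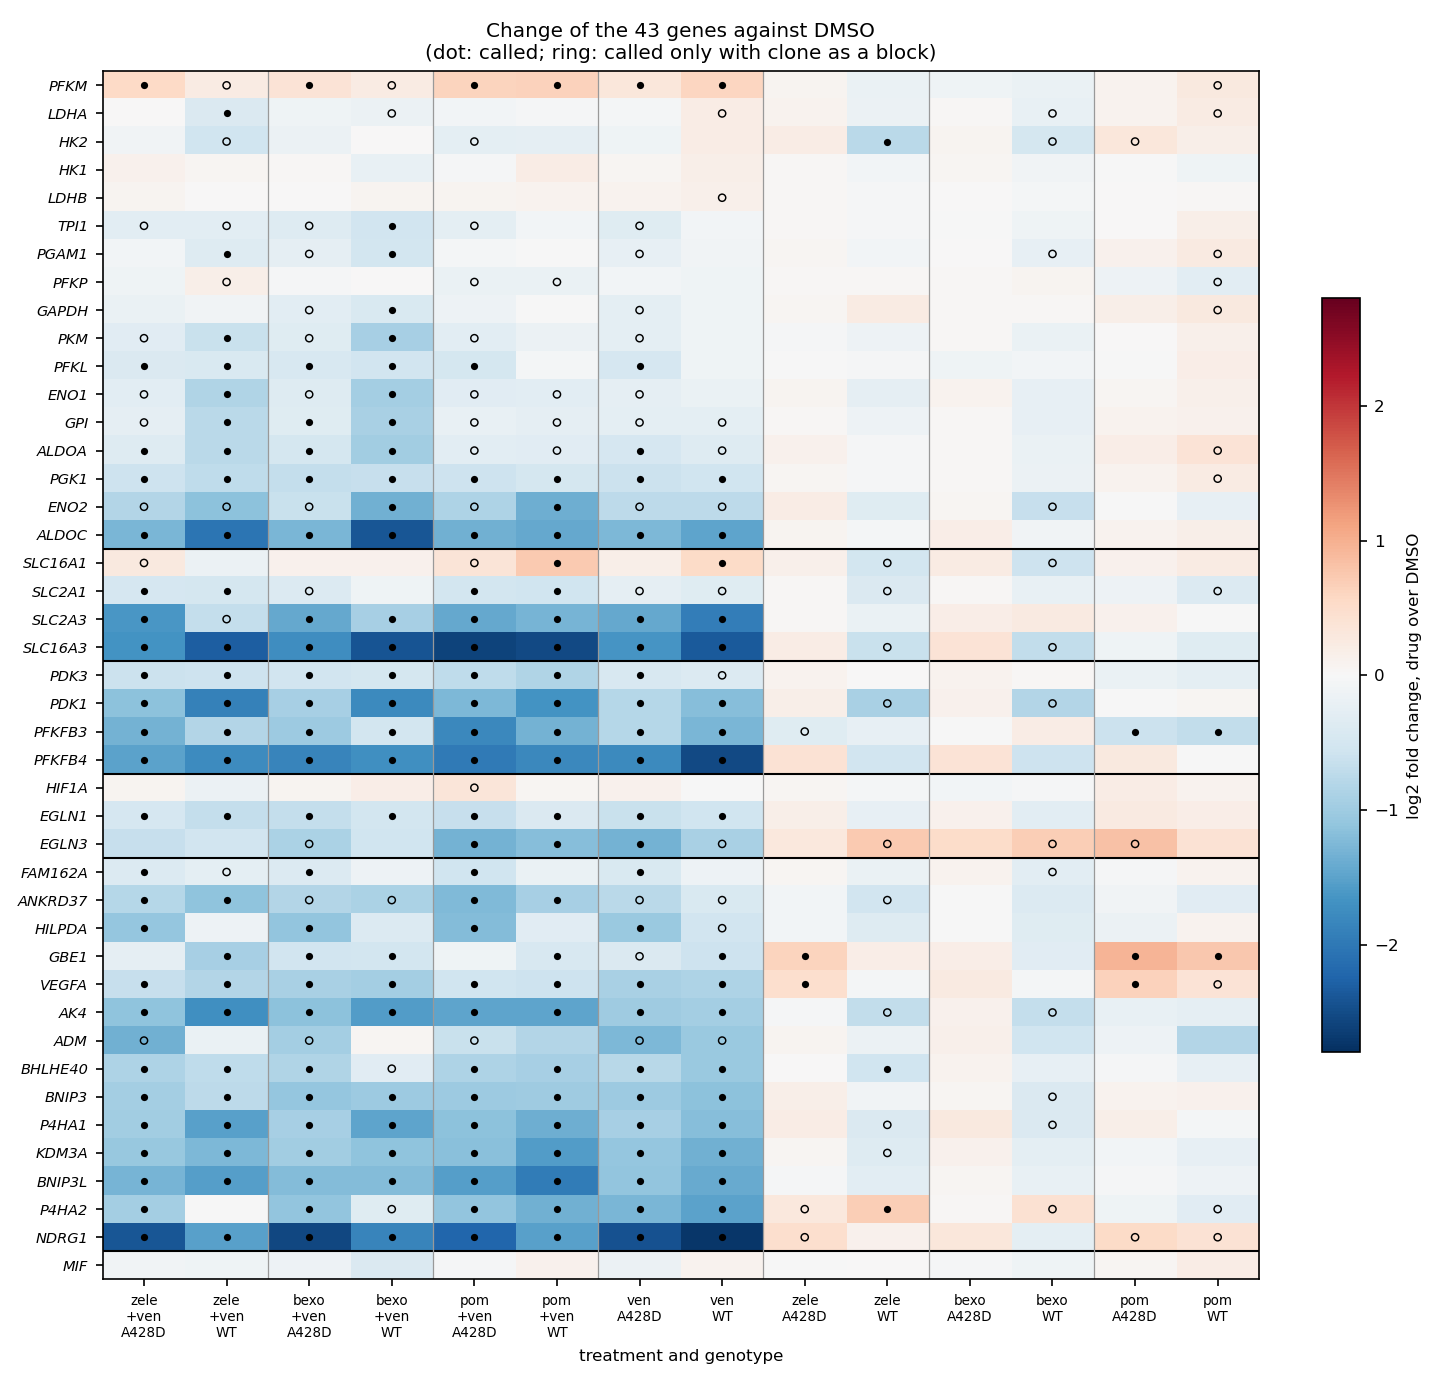
Log2 fold change of the 43 genes against DMSO, in columns of drug and genotype, blue lower and red higher with the drug; a dot marks a call by the test without a block and a ring a call with the clone as a block only. Columns with venetoclax are blue for most hypoxia targets, with NDRG1 at -2.44 in A428D and -2.71 in wild-type clones with venetoclax alone, and columns of single drugs are pale.

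Without venetoclax few members were called by the test without a block, and more were in wild-type clones with the clone as a block, as given for each drug below. The counts that follow first are without a block. Zelebrudomide raised 2 of 43 genes and lowered 0 in A428D clones (2.06% of all genes called, 1.34% higher and 0.715% lower), and raised 1 and lowered 2 in wild-type clones (6.57%, 3.05% higher and 3.52% lower). Bexobrutideg had 0 of 43 called in A428D clones, where 0.0% of all genes were (0 members and 288 of 14962 genes at an unadjusted p under 0.05), and 0 of 43 in wild-type clones (2.45% of all genes called, 8 members at an unadjusted p under 0.05). Pomalidomide raised 2 and lowered 1 in A428D clones (8.68%, 4.92% higher and 3.76% lower), and raised 1 and lowered 1 in wild-type clones (9.99%, 5.36% higher and 4.63% lower).

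In wild-type clones HK2 had 13.3, 13.3, 14.3, 20.2 and 14.8 CPM with zelebrudomide, against 22.3, 27.8, 27.6, 27.8 and 25.5 CPM under DMSO, and every treated library lay below every DMSO library (-0.76 ± 0.22, adjusted p = 0.0238). BHLHE40 (ENSG00000134107, chr3:4979116-4985323, plus strand) fell by 0.55 ± 0.15 (adjusted p = 0.0165) and P4HA2 (ENSG00000072682, chr5:132191838-132295315, minus strand) rose by 0.70 ± 0.22 (adjusted p = 0.0369), to 82.7, 47.9, 58, 71.4 and 56.9 CPM, against 44.3, 32.2, 32, 48.1 and 41.3 CPM, which overlapped. These calls were fragile: HK2 and BHLHE40 were lost without wild-type clone 1, 2, 3 or 5 (adjusted p = 0.0572 to 0.151 for HK2 and 0.0664 to 0.0907 for BHLHE40), and P4HA2 without any wild-type clone (adjusted p = 0.0796 to 0.117). Without wild-type clone 1, 2, 3 or 5, 0 of 43 were called. Without A428D clone 1, 1 rose and 5 fell, and without A428D clone 3, 1 rose and 4 fell. Blocking by clone gave 2 risen and 10 fallen in wild-type clones (16.2% of all genes called). PDK1 had 9.65, 4.34, 4.83, 10.5 and 5.24 CPM in wild-type clones with zelebrudomide, against 12.4, 12.6, 15, 17.7 and 8.95 CPM under DMSO, which overlapped between clones though each clone was lower (-0.92, adjusted p = 0.0539, 0.000474 with the block and 0.0492 without the library apart). SLC2A1 stood at -0.41, called with the block alone (adjusted p = 0.00197). MYC fell by 0.78 in wild-type clones (adjusted p = 0.00572) and stood at 0.07 in A428D clones.

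In A428D clones zelebrudomide raised GBE1 (ENSG00000114480, chr3:81489699-81762161, minus strand), the glycogen branching enzyme, to 28.7, 30.8 and 41.2 CPM, against 17, 19.2 and 27.1 CPM under DMSO, with no overlap (0.63 ± 0.15, adjusted p = 0.00692). It raised VEGFA (ENSG00000112715, chr6:43770184-43786487, plus strand) to 41.8, 47.7 and 72.5 CPM, against 26.9, 31.5 and 53.6 CPM, which overlapped (0.48 ± 0.14, adjusted p = 0.0388), and this call ended without A428D clone 1, 2, 4, 5 or 6 or wild-type clone 5 (adjusted p = 0.0506 to 0.227), which left 1 gene risen and 0 fallen. HK2 had 27.1, 45.1 and 53.1 CPM in A428D clones with zelebrudomide, against 24.2, 37.4 and 46.7 CPM under DMSO, and was not called. Blocking by clone gave 4 risen and 1 fallen in A428D clones (6.73% of all genes called).

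With bexobrutideg 2 members rose and 11 fell in wild-type clones once the clone was a block (10.6% of all genes called), and 0 were called in A428D clones with or without it. The wild-type falls included PDK1 (-0.81 ± 0.30, adjusted p = 0.158, and 0.00276 with the block) and HK2 (-0.49, adjusted p = 0.289, and 0.00485). SLC16A1, named here after its values were seen, had 19.5, 23.1, 25.3, 22.1 and 19.1 CPM with bexobrutideg in wild-type clones, against 27.7, 35.8, 33.8, 36.9 and 33.1 CPM under DMSO, with no overlap (-0.58 ± 0.19, adjusted p = 0.0861, and 0.000659 with the block). In A428D clones SLC16A1 had 28.4, 45.4 and 72.1 CPM with bexobrutideg, against 24.5, 36.7 and 61.4 CPM under DMSO. LDHA in wild-type clones stood at -0.21, called with the block alone (adjusted p = 0.046). Without A428D clone 1, 2 members fell in wild-type clones, and without A428D clone 3, 1 did.

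With pomalidomide PFKFB3 and GBE1 were called in both genotypes. PFKFB3 had 24.6, 33.9 and 40 CPM in A428D clones with pomalidomide, against 43.5, 48.8 and 60 CPM under DMSO (-0.61 ± 0.14, adjusted p = 0.000769), and 18.9, 17.9, 18.1, 20.1 and 19.3 CPM in wild-type clones, against 25.6, 29.4, 30.9, 39.6 and 26.9 CPM (-0.69 ± 0.16, adjusted p = 0.000894). Treated and DMSO clones did not overlap in either genotype. GBE1 had 23.9, 40.9 and 50.7 CPM in A428D clones with pomalidomide (0.95 ± 0.15, adjusted p = 6.73e-07), and 33.6, 34.5, 28.9, 37.3 and 32.6 CPM in wild-type clones, against 18.3, 20.5, 21.5, 23.7 and 15.7 CPM under DMSO (0.75 ± 0.16, adjusted p = 0.000418). VEGFA rose by 0.64 ± 0.14 in A428D clones (adjusted p = 0.000351). In wild-type clones it stood at 0.39 ± 0.15 (adjusted p = 0.0818, 0.00236 with the block and 0.0475 without the library apart). Blocking by clone gave 5 risen and 1 fallen in A428D (16.7% of all genes called), and 9 risen and 4 fallen in wild-type clones (19.2%). Without the library apart 4 rose and 1 fell in wild-type clones, ALDOA (0.37) and GAPDH (0.28) being added.

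**Figure D4:**
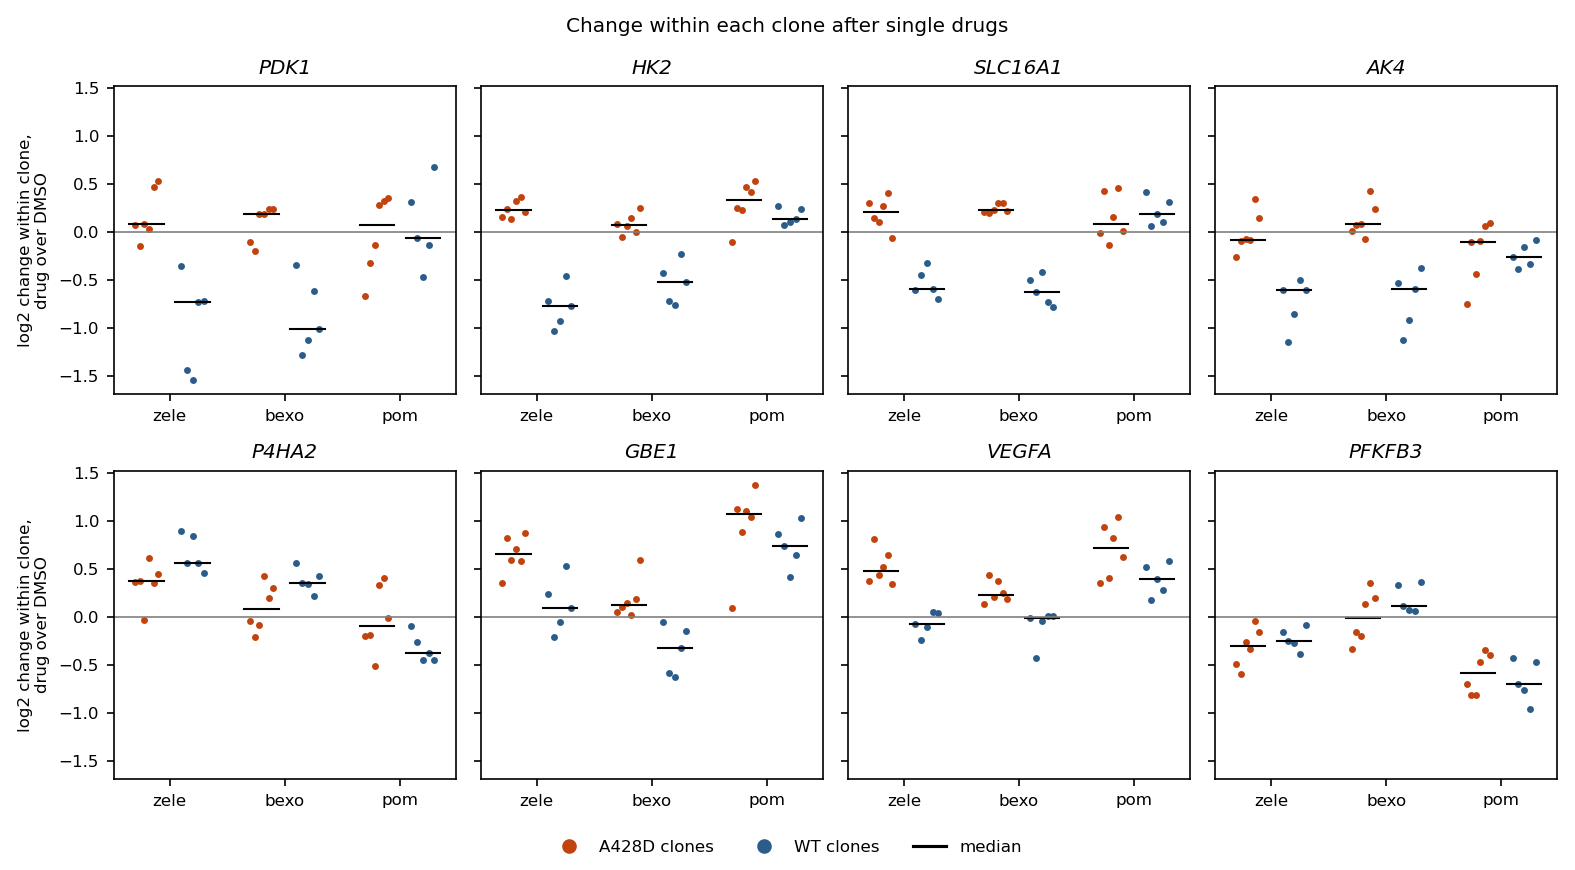
Log2 change within each clone (CPM plus 0.5, drug over DMSO) of 8 genes with zelebrudomide (zele), bexobrutideg (bexo) and pomalidomide (pom), with A428D clones in orange left of wild-type clones in blue and a bar at each median. PDK1, HK2, SLC16A1 and AK4 lie below 0 in all 5 wild-type clones with zelebrudomide and with bexobrutideg, and PFKFB3 lies below 0 in all 11 clones with pomalidomide.

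The 2 BTK degraders were set against each other directly, at doses that are not stated and so may not match. Zelebrudomide over bexobrutideg had 0 of 43 called in A428D (1.24% of all genes called, 2 members at an unadjusted p under 0.05) and 0 of 43 in wild-type clones (1.23%, 3 members). Once the clone was a block, PFKFB3 and GBE1 were called in each genotype (4.82% of all genes called in A428D and 4.43% in wild-type clones). PFKFB3 had 28.7, 39.9 and 49.9 CPM in A428D clones with zelebrudomide, against 39, 52 and 60.4 CPM with bexobrutideg, and 23, 24.7, 25.6, 30.2 and 25.3 CPM in wild-type clones with zelebrudomide, against 32.3, 31.8, 32.6, 41.4 and 34.6 CPM with bexobrutideg. Every clone was lower with zelebrudomide, and the wild-type groups did not overlap. The log2 difference was -0.33 in A428D (95% interval -0.59 to -0.07, adjusted p = 0.396, and 0.0085 with the block) and -0.44 in wild-type clones (-0.74 to -0.14, adjusted p = 0.227, and 0.00413). GBE1 was higher, by 0.45 in A428D (0.16 to 0.74, adjusted p = 0.141, and 0.00248 with the block) and by 0.50 in wild-type clones (0.17 to 0.84, adjusted p = 0.187, and 0.0138). HK2 differed by 0.13 in A428D (-0.23 to 0.50) and by -0.27 in wild-type clones (-0.72 to 0.19), with neither called.

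With zelebrudomide added to venetoclax 6 of the 17 enzymes were called lower in wild-type clones, and with bexobrutideg added 8 were. Against venetoclax alone, zelebrudomide plus venetoclax had 3 of 43 genes higher and 8 lower in wild-type clones (21.2% of all genes called, 11.6% higher and 9.61% lower), and 0 higher and 1 lower in A428D clones (1.07%, 0.655% higher and 0.414% lower). Bexobrutideg plus venetoclax had 3 higher and 9 lower in wild-type clones (15.5%, 8.0% higher and 7.51% lower), or 3 higher and 11 lower without the library apart, and 0 of 43 in A428D clones, where 0.0% of all genes were called (0 members and 232 genes at an unadjusted p under 0.05). Pomalidomide plus venetoclax had 0 of 43 called in wild-type clones (8.41%, 4 members at an unadjusted p under 0.05), and 1 higher and 1 lower in A428D clones (7.91%, 4.6% higher and 3.31% lower). Blocked by clone, wild-type clones had 7 higher and 13 lower with zelebrudomide (32.5% of all genes called), 4 higher and 16 lower with bexobrutideg (25.4%) and 1 higher and 6 lower with pomalidomide added (17.2%). A428D clones then had 1 higher and 1 lower with zelebrudomide (5.11%) and 2 higher and 6 lower with pomalidomide added (16.3%). For pomalidomide added in wild-type clones, 1 was higher and 2 lower without A428D clone 3, and 0 higher and 1 lower without A428D clone 4 or 5.

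Of the 17 enzymes 6 fell with zelebrudomide added in wild-type clones: HK2, ENO1, LDHA, PKM, GPI and PFKM. HK2 had 16.8, 17.5, 17.7, 14.1 and 19 CPM with the combination, against 26.3, 30.5, 31.9, 29.1 and 32.5 CPM with venetoclax alone, and did not overlap (-0.77 ± 0.23, adjusted p = 0.0108). ENO1 (ENSG00000074800, chr1:8861000-8879250, minus strand), the enolase of most tissues, had 552, 612, 637, 642 and 649 CPM with the combination, against 837, 1077, 1103, 978 and 1068 CPM with venetoclax alone (-0.65 ± 0.15, adjusted p = 0.000947). LDHA had 120, 154, 170, 176 and 166 CPM, against 196, 273, 287, 238 and 259 CPM (-0.61 ± 0.15, adjusted p = 0.0018). PKM, pyruvate kinase, fell by 0.49 (adjusted p = 0.0128), GPI by 0.47 (adjusted p = 0.00559) and PFKM by 0.37 (adjusted p = 0.0112). The lactate transporter SLC16A1 fell too, to 23.5, 30.3, 34.9, 26.3 and 29.1 CPM, against 38.5, 47, 55.3, 51.5 and 50.7 CPM with venetoclax alone (-0.71 ± 0.19, adjusted p = 0.00424). AK4 fell by 0.77 (adjusted p = 0.0461, lost without any wild-type clone at 0.0627 to 0.127). MYC fell by 0.78 as well (adjusted p = 0.00246). In A428D clones HK2 stood at 0.02, LDHA at 0.08 and MYC at -0.17, none called. Whether a change over venetoclax alone differed between genotypes was not tested, for this or the other added drugs.

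P4HA2, SLC2A3 and PFKFB3 rose with zelebrudomide added in wild-type clones. P4HA2 had 59.8, 29.5, 29.1, 35.7 and 32.1 CPM with the combination, against 15.8, 11.8, 11.2, 15.6 and 15.2 CPM with venetoclax alone, with no overlap (1.49 ± 0.24, adjusted p = 3.28e-06). SLC2A3 had 7.39, 3.28, 1.58, 2.48 and 2.06 CPM, against 2.2, 1.66, 1.55, 1.57 and 0.792 CPM (1.27 ± 0.40, adjusted p = 0.0168). Clone 1 carried much of it: without wild-type clone 1 SLC2A3 stood at 0.81 (adjusted p = 0.262), and without wild-type clone 5 its adjusted p was 0.0572. PFKFB3 rose by 0.46 in wild-type clones (adjusted p = 0.0473, lost without any of 10 clones and without the library apart, at 0.0515) and fell by 0.53 in A428D clones (adjusted p = 0.0416, lost without any of 9 clones). Without the library apart 2 rose and 12 fell in wild-type clones, ALDOA (-0.42), ALDOC (-0.59), MIF (-0.23) and PGAM1 (-0.29) being added.

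With bexobrutideg added to venetoclax 8 of the 17 enzymes and MIF fell in wild-type clones. ENO1 had 603, 705, 222, 651 and 667 CPM with the combination, against 837, 1077, 1103, 978 and 1068 CPM with venetoclax alone (-0.78 ± 0.15, adjusted p = 0.000119), and -0.61 ± 0.14 without the library of clone 3 (adjusted p = 0.00095). PKM had 220, 259, 55.3, 249 and 241 CPM, against 312, 393, 425, 359 and 362 CPM (-0.80 ± 0.15, adjusted p = 5.45e-05), and -0.60 ± 0.11 without that library (adjusted p = 6.67e-05). ALDOC had 17.2, 15.5, 8.68, 21.6 and 17.3 CPM, against 32.6, 35.2, 37.2, 30.6 and 28.3 CPM (-0.93 ± 0.23, adjusted p = 0.002), and -0.86 ± 0.24 without it (adjusted p = 0.00763). In all 5 clones these 3 enzymes were lower with the combination. GPI fell by 0.63 (0.46 without that library), ALDOA by 0.61 (0.41), PGAM1 by 0.42 (0.43), PFKM by 0.36 (0.47) and MIF by 0.49 (0.24, adjusted p = 0.0289). TPI1 fell by 0.46 and was lost without that library (-0.26, adjusted p = 0.147). HK2 (-0.60, adjusted p = 0.04), LDHA (-0.56, adjusted p = 0.00731) and SLC16A1 (-0.60, adjusted p = 0.0244) were called only once it was left out. Leaving a clone out of every condition ended further calls. ALDOA and PGAM1 were lost without wild-type clone 3 (adjusted p = 0.0599 and 0.051). PFKM was lost without wild-type clone 2 or 5 (adjusted p = 0.0513 and 0.0506), and MIF without wild-type clone 1 or 3 (adjusted p = 0.0539 and 0.116).

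P4HA2 had 39, 23.8, 26.5, 31 and 29.5 CPM in wild-type clones with bexobrutideg plus venetoclax, above every wild-type library with venetoclax alone (1.17 ± 0.25, adjusted p = 0.000359, and 1.16 without the library apart). PFKFB3 rose by 0.77 ± 0.17 (0.67 without it) and BHLHE40 by 0.73 ± 0.16 (0.58 without it). In A428D clones P4HA2 had 8.32, 12.2 and 15.6 CPM with the combination, against 5.07, 11.4 and 14.7 CPM with venetoclax alone. Pomalidomide added to venetoclax lowered PFKFB3 in A428D clones, to 8.71, 14.4 and 19 CPM, against 20.5, 27.6 and 39 CPM with venetoclax alone, with no overlap (-1.02 ± 0.15, adjusted p = 1.58e-07). It raised PFKM there by 0.31 ± 0.10 (adjusted p = 0.0384, lost without any of 9 clones).

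**Figure D5:**
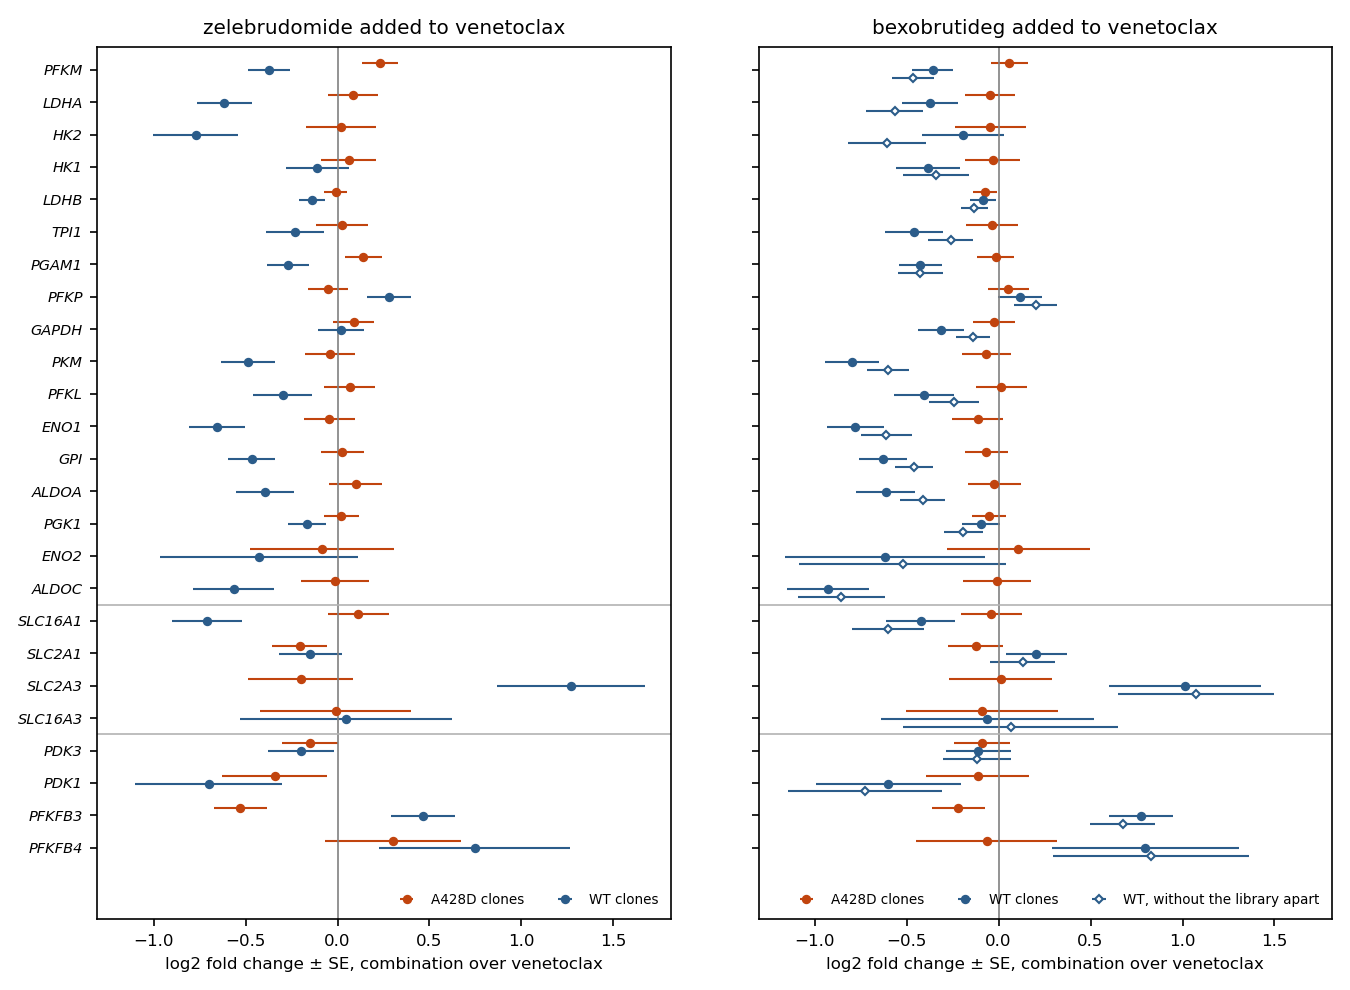
Log2 fold change of the enzymes, transporters and regulators of flux (25 genes) when zelebrudomide (left) or bexobrutideg (right) was added to venetoclax, over venetoclax alone; points are estimates and lines SE, A428D in orange and wild-type in blue, open points without the library apart. In wild-type clones ENO1 lies at -0.65 and -0.78 and PFKFB3 at 0.46 and 0.77, while A428D points for most enzymes lie near 0. The difference between genotypes was not tested in these comparisons.

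An interaction term tested whether a response over DMSO differed between genotypes. Its value was positive where the A428D change lay above the wild-type change. One of the 43 genes passed for 1 of the 7 drug conditions, ALDOC with bexobrutideg plus venetoclax (1.94% of all genes called, 0.949% higher and 0.996% lower). ALDOC had 26.7, 43.7 and 54.5 CPM in A428D clones and 17.2, 15.5, 8.68, 21.6 and 17.3 CPM in wild-type clones with the combination, without overlap, beside overlapping DMSO ranges of 69.2 to 131 and 76.3 to 108 CPM. The changes of -1.28 in A428D and -2.41 in wild-type clones differed by 1.13 ± 0.28 (adjusted p = 0.0155), or by 1.05 without the library apart (adjusted p = 0.0368). The call ended without wild-type clone 2 (adjusted p = 0.0611) or wild-type clone 3 (adjusted p = 0.0705), each left out of every condition, and 2 of 43 passed without A428D clone 1.

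For the other 6 conditions 0 of 43 passed, where 1.04% of all genes did with zelebrudomide (8 members at an unadjusted p under 0.05), 0.615% with bexobrutideg (8 members), 0.0% with pomalidomide (0 members), 3.32% with zelebrudomide plus venetoclax (9 members) and 0.00668% with pomalidomide plus venetoclax (3 members). More passed once the clone was a block: 10 positive and 1 negative with zelebrudomide, 8 positive and 0 negative with bexobrutideg, 8 positive and 5 negative with zelebrudomide plus venetoclax, and 5 positive and 4 negative with bexobrutideg plus venetoclax, where 6.76%, 5.03%, 11.6% and 7.45% of all genes passed with that block. HILPDA, a lipid droplet protein, passed with the block for pomalidomide plus venetoclax (-0.90, adjusted p = 1, and 0.0171 with the block, where 0.167% of all genes passed). With zelebrudomide HK2 differed by 0.97 ± 0.29 (adjusted p = 0.0842, 1.48e-05 with the block and 0.0282 without the library apart) and PDK1 by 1.08 ± 0.39 (adjusted p = 0.223, and 0.00314 with the block). SLC16A1, named after its values were seen, differed by 0.82 ± 0.25 with bexobrutideg (adjusted p = 0.131, and 0.000456 with the block). Among the combinations P4HA2 went the other way with zelebrudomide plus venetoclax (-0.94 ± 0.32, adjusted p = 0.0868, and 2.56e-06 with the block). Without the library apart ENO1 (0.56, adjusted p = 0.0414) and GPI (0.52, adjusted p = 0.00777) passed for zelebrudomide plus venetoclax. For that condition 2 of 43 passed without A428D clone 1 and 1 without wild-type clone 3, and for zelebrudomide 1 passed without A428D clone 1.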

How the data were processed

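Per the submitters' processing notes, reads were handled with fastp 0.24.0, STAR 2.7.11, SAMtools 1.22.1 and featureCounts of Subread 2.1.1 on GRCh38. Duplicate removal, strandedness of counting and the annotation release are not given in the sources used here. What the authors deposited is a table of estimated counts per gene, of which 8.75% of values are not whole, as arises where a read is shared among genes. Here the expected counts were rounded, which changed the total by -0.00678%, and the 92 spike-ins, which took no more than 0.000976% of any library, were not tested. With 3′ tags, counts are not divided by transcript length, so levels are compared within a gene only.

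Tests used edgeR 4.0.16 in R 4.3.3 with TMM scaling, filterByExpr (minimum count 10, minimum total 15), the robust quasi-likelihood F-test and Benjamini-Hochberg adjustment over all genes tested, which numbered 14962 in the 24 h set, 13397 for genotype under DMSO, 14564 for genotype untreated and 15354 for DMSO against untreated. A gene is called at an adjusted p under 0.05. CPM are TMM-scaled over 100 libraries, and changes within a clone use a pseudocount of 0.5 CPM. Depths were 1476519 to 12501775 counts, and no pair of 225 within groups agreed within sampling noise (lowest chi-square per degree of freedom 1.79).

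The same clone supplied every condition of the 24 h set, which pairs those libraries. Deviations from group means over 500 genes correlated within clones at a median r of 0.626, against -0.164 between clones, and 88 of 88 libraries lay nearest their own clone. The numbers of A428D and wild-type clones pair nothing. Alternatives were the clone as a block, RLE scaling, DESeq2 1.42.0, no expression filter, fits of only the groups compared, leaving out the shallowest library and leaving out each clone. The code was tested on simulated data.

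The 43 genes and the gene lists were chosen with earlier results of these data known. Genes were named if called and moved the same way in every clone, up to 8 per direction and comparison by size, with HIF1A, SLC2A1, LDHA, PDK1, VEGFA and HK2 always and MYC from outside the 43.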

Additional observations from a re-analysis of the deposited data

Results flagged for a closer look

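In 129 sets of 5 or 6 clones (1 gene in 1 group each) tested for a single clone set apart from the rest, 15 had one, where chance gives about 1 in 20. HK2, ENO1 and PKM had theirs in the library of wild-type clone 3 with bexobrutideg plus venetoclax, the shallowest: HK2 was highest at 55.73 CPM (others 18.72 to 21.14), ENO1 lowest at 221.5 CPM (others 603.4 to 704.7) and PKM lowest at 55.27 CPM (others 219.7 to 258.6).

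A428D clone 3 under DMSO was highest for SLC16A3 at 23.06 CPM (others 7.767 to 10.24), PDK1 at 25.24 CPM (others 13.33 to 16.32) and NDRG1 at 18.28 CPM (others 3.88 to 8.155). With zelebrudomide the same clone was highest for GBE1 at 41.22 CPM (others 28.66 to 32.46). Wild-type clone 4 with zelebrudomide was highest for HK2 at 20.16 CPM (others 13.31 to 14.81) and GBE1 at 34.44 CPM (others 16.8 to 21.63), and untreated for SLC16A3 at 1.072 CPM (others 0.7731 to 0.8434).

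A428D clone 1 was highest for HIF1A with venetoclax at 101.4 CPM (others 57.79 to 69.12) and for VEGFA untreated at 17.29 CPM (others 6.418 to 9.752). Wild-type clone 1 was lowest for SLC2A1 with venetoclax at 21.58 CPM (others 26.62 to 27.87) and highest for P4HA2 with zelebrudomide plus venetoclax at 59.81 CPM (others 29.15 to 35.67). A428D clone 5 was lowest for untreated LDHA at 463.5 CPM (others 525.8 to 559.6).

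In the fit without a block, 1 response differed between genotypes by the test of the difference itself. It was that of ALDOC to bexobrutideg plus venetoclax, by 1.13 on the log2 scale. This call ended without wild-type clone 2 or 3 (adjusted p = 0.0611 and 0.0705) and with only the groups compared. With the clone as a block more members passed, in this and in other conditions.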

How the results depend on the processing

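Of 315 called gene results 0 changed direction under any alternative run. Each call was refitted without each of the 11 clones in turn, and of these call-by-clone fits 279 ended the call and 3186 kept it. For calls within 1 genotype these include fits without clones of the other genotype. Such clones are on neither side of the comparison and act only through the shared fit, so the number kept overstates how firm the calls are. No filter ended 10 of the 315 calls, the clone as a block 4, RLE scaling 3 and DESeq2 1. Of the calls that could be refitted, fits of only the groups compared ended 33 and kept 198, and leaving out the shallowest library ended 6 and kept 227.

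Counts of the 43 genes called moved by over 1.5 times as follows (the count with all libraries and no block first). For A428D over wild-type clones under DMSO (3), DESeq2 gave 8, no filter 11 and the replicate number as a block 1; untreated (3), these gave 7, 6 and 1. For wild-type clones, zelebrudomide (3) gave 10 without a filter, 10 with only the groups compared and 12 with the clone as a block; bexobrutideg (0) gave 8, 4 and 13; pomalidomide plus venetoclax over venetoclax (0) gave 5, 9 and 7; bexobrutideg plus venetoclax over venetoclax (12) gave 19, 4 and 20; zelebrudomide over bexobrutideg (0) gave 1, 1 and 2. With only the groups compared and with the block, pomalidomide (2) gave 13 and 13 (5 without the shallowest library), venetoclax (20) 31 and 31, and zelebrudomide plus venetoclax over venetoclax (11) 25 and 20; bexobrutideg plus venetoclax over DMSO (26) gave 17 with only the groups compared. For A428D clones, zelebrudomide (2) gave 1 with only the groups compared and 5 with the block, zelebrudomide plus venetoclax over venetoclax (1) gave 0 and 2, pomalidomide (3) gave 6 with the block, and without a filter and with the block pomalidomide plus venetoclax over venetoclax (2) gave 5 and 8 and zelebrudomide over bexobrutideg (0) gave 1 and 2. For the differences in response, without a filter and with the block, zelebrudomide (0) gave 7 and 11 (1 without the shallowest library), bexobrutideg (0) 6 and 8, pomalidomide plus venetoclax (0) 1 and 1, zelebrudomide plus venetoclax (0) 8 and 13 (2 with only the groups compared and 2 without the shallowest library), and bexobrutideg plus venetoclax (1) 8 and 9 (2 with DESeq2 and 0 with only the groups compared). The cause of these moves was not tested.

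With each clone left out, genotype counts were 2 to 11 under DMSO and 1 to 8 untreated. DMSO over untreated gave 37 to 38 in A428D and 36 to 38 in wild-type clones. Against DMSO, A428D and wild-type counts were 17 to 28 and 18 to 21 for venetoclax, 18 to 27 and 20 to 27 with zelebrudomide, 17 to 29 and 20 to 26 with bexobrutideg, and 24 to 29 and 20 to 25 with pomalidomide in the combination. Single drugs gave 1 to 2 and 0 to 6 for zelebrudomide, 0 to 0 and 0 to 2 for bexobrutideg, and 3 to 3 and 2 to 3 for pomalidomide. Over venetoclax the combinations gave 0 to 1 and 8 to 14 with zelebrudomide, 0 to 0 and 9 to 18 with bexobrutideg, and 1 to 2 and 0 to 3 with pomalidomide. Response differences gave 0 to 1 for zelebrudomide, 0 to 2 for each BTK degrader with venetoclax and 0 for the rest.

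Limits: clones of 1 line are the replicates, NDRG1, SLC16A3, ADM, EGLN3, ALDOC, PFKFB4, SLC2A3 and ENO2 had libraries below the filter level of 1.43 CPM, in ALDOC untreated ones, and how reads of LDHA, GAPDH, PGAM1 and BNIP3 fell between gene and pseudogenes was not tested.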
